A study of Mus musculus with 30 samples.

Results

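Brown adipose tissue (BAT) was compared with inguinal white adipose tissue (iWAT) of mice labelled as kept at 22 °C, across all genes. The comparison used 10 of the 30 bulk RNA libraries of the series: the 5 labelled BAT at 22 °C and the 5 labelled iWAT at 22 °C. Both groups were male C57BL/6J mice aged 7 to 8 weeks with no genetic change or drug, and they differed in the depot taken. The housing notes give cages of 5 mice, 12 h of light and a room at 24 ± 2 °C, so the labelled 22 °C and the stated room temperature are not the same number. The other 20 libraries, 5 of each depot after 6 h and after 24 h at 6 °C, entered the same model and are used otherwise only to look at the same genes in other samples. Nothing in the labels says that the 5 libraries of a group came from 5 animals, or that equal replicate numbers in both depots mark 1 mouse, so p-values measure the spread between these samples, which may be technical.

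Brown adipocytes burn fatty acids and glucose in dense mitochondria. Uncoupling protein 1 (UCP1) lets protons back across the inner mitochondrial membrane without making ATP, and the energy is released as heat. Noradrenaline from sympathetic nerves drives this through beta-adrenergic receptors, cyclic AMP and lipolysis. White adipocytes store triglyceride in a single large droplet and secrete hormones such as leptin. The inguinal depot of mice can also form beige adipocytes, which carry UCP1 within a white depot.

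The 5 BAT libraries at 22 °C held 25.3 to 36.7 M counts assigned to genes (M, 1e6), and the 5 iWAT libraries 27.7 to 39.8 M. Of 21652 genes in the table, 14089 had enough counts to be tested. The depot labels were checked against markers. Ucp1, Cidea, Cox7a1 and Cpt1b were higher in every BAT library than in any iWAT library, and Lep, Slc7a10, Retn, Nnat and Hoxc10 were higher in every iWAT library. Adipoq, Plin1, Fabp4 and Pparg were present in all 10 libraries. Lhx8 did not pass the test, and Tcf21 had too few counts to be tested. Skeletal muscle mRNA stood out: the summed level of 16 muscle markers was 403 to 11392 CPM in BAT (CPM, counts per 1e6 assigned counts, on library sizes scaled by TMM). It was 53.6 to 63.3 CPM in 4 iWAT libraries and 4364 CPM in iWAT replicate 2. Results that share genes with muscle are given below with this in view. For some genes a fit with the muscle list mean as a covariate is also given. That mean was higher in every BAT library than in any iWAT library but replicate 2. It is therefore partly confounded with depot, and a call lost with it can be lost power.

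Of the 14089 genes, 9427 differed between the depots at an adjusted p under 0.05, or 66.9%. BAT was the higher depot for 4570 genes (32.4%) and iWAT for 4857 (34.5%). With a log2 difference of at least 1 in size as well, 4299 genes remained (30.5%), 1674 higher in BAT (11.9%) and 2625 in iWAT (18.6%). For 7421 genes (52.7%) the 5 BAT and the 5 iWAT libraries did not overlap. At the other end, 3182 genes had a 95% interval of the log2 difference that lay within 0.5 of 0. With so many genes called, the number of called members in a gene group is read below against these shares and against the median log2 difference of all genes, which was -0.04.

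**Figure D1:**
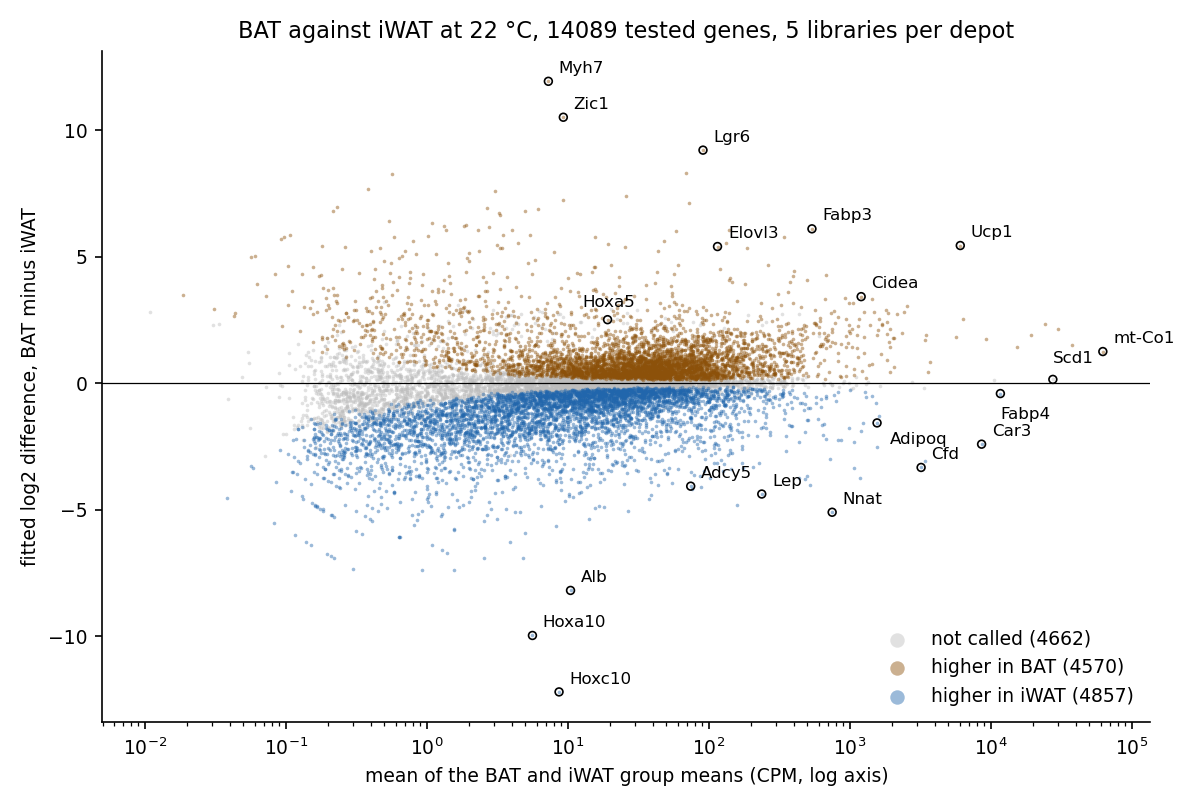
Fitted log2 difference between BAT and iWAT (vertical axis) against the mean level of the gene over both depots in CPM (horizontal log axis) for each tested gene at 22 °C. Brown points were called higher in BAT (4570), blue points higher in iWAT (4857) and grey points were not called (4662), and some of the genes named in the text are circled.

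The split between the directions depended on how the libraries were scaled. Of the called genes, 48.5% were higher in BAT under TMM scaling and 36.0% with upper-quartile factors. On log2 of the deposited FPKM plus 1 it was 17.4%, with 1966 of the 14089 genes higher in BAT and 9302 in iWAT. The median over all genes moved to -0.34 on that scale. With upper-quartile factors this median was -0.23. The cause of these shifts was not tested. Counts and medians of gene groups on log2 of FPKM plus 1 are read below against these FPKM values over all genes. The mitochondrially encoded genes held 26.0 ± 0.435% of counts in BAT (mean ± SD, n = 5, 25.5 to 26.5%) and 12.4 ± 1.81% in iWAT (9.83 to 14.8%). The ranges did not meet, and the exact two-sided permutation p was 0.00794, the smallest that 5 against 5 libraries can give. The 10 most counted genes held 30.3 ± 0.621% of counts in BAT and 20.2 ± 1.28% in iWAT (n = 5, exact permutation p = 0.00794). Without the mitochondrially encoded genes these shares were 12.4 ± 0.586% and 13.3 ± 0.844%, with iWAT the higher (n = 5, exact permutation p = 0.0952).

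Per length, the most abundant transcripts of both depots were mitochondrially encoded. mt-Co1, a core subunit of cytochrome c oxidase, led BAT at 48830.3 ± 1481 FPKM (FPKM, counts per kilobase and per 1e6 counts, mean ± SD, n = 5) and iWAT at 30765 ± 4681 FPKM. Among nuclear genes Ucp1 led BAT, at rank 8 of all genes with 6226 ± 638 FPKM against 209 ± 229 FPKM in iWAT. Cfd, which encodes the secreted protease adipsin, led the nuclear genes of iWAT at rank 5, with 8170 ± 1347 FPKM against 545 ± 186 FPKM in BAT. Car3, a carbonic anhydrase abundant in white fat, followed at rank 8 in iWAT with 6567 ± 453 FPKM against 825 ± 250 FPKM. Scd1, the desaturase that makes monounsaturated fatty acids, was among the top 10 of both depots, at 5096 ± 468 FPKM in BAT and 6946 ± 1323 FPKM in iWAT. In the fit of the counts it did not pass the test of a difference (log2 0.16 ± 0.23, approximate SE, adjusted p = 0.551). The sign of that log2 difference is opposite to that of the FPKM means.

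The thermogenic program separated the depots, with the BAT libraries close together and the iWAT libraries widely spread. Ucp1 (ENSMUSG00000031710) stood at 12592, 13035, 11874, 9654 and 12142 CPM in BAT replicates 1 to 5. In iWAT it stood at 28.8, 138, 653, 523 and 9.01 CPM. The lowest BAT library was above the highest iWAT library, and iWAT replicates 3 and 4 were the high ones of their depot. The fitted log2 difference was 5.45 ± 0.77 (adjusted p = 5.01e-07, quasi-likelihood F test of edgeR), about 43.9-fold. Dio2, the deiodinase that activates thyroid hormone inside the cell, was at 363 to 638 CPM in BAT. In iWAT it was at 3.45, 7.59, 35.4, 51.1 and 1.38 CPM (log2 4.67 ± 0.65). Elovl3, an enzyme that lengthens long acyl chains, was at 147 to 318 CPM in BAT and at 0.92, 2.09, 13.9, 9.27 and 0.305 CPM in iWAT (log2 5.41 ± 0.74). For each of these genes iWAT replicates 3 and 4 were the highest iWAT libraries and replicates 1 and 5 the lowest. Cidea, a lipid droplet protein of brown fat, ranged from 2052 to 2359 CPM in BAT and from 66.9 to 495 CPM in iWAT (log2 3.43 ± 0.43). In bulk tissue, fewer cells of a type and less RNA per cell cannot be told apart.

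Of 32 thermogenic genes tested, 27 were higher in BAT and 3 in iWAT, with a median log2 difference of 2.89. The counts were 24 and 3 and the median 1.86 on log2 of FPKM plus 1. Effectors other than Ucp1 differed widely in size. Slc27a2, a fatty acid transporter and acyl-CoA synthetase, had a log2 difference of 5.36 ± 0.70. Gmpr, which converts GMP to IMP, had one of 6.08 ± 0.49 (144 to 356 CPM against 3.09 to 6.1 CPM). Cox7a1, the heart and brown fat form of a cytochrome c oxidase subunit, reached 4.08 ± 0.40, and Kcnk3, a potassium channel, 3.09 ± 0.30. The coactivators Ppargc1a and Ppargc1b, which switch on mitochondrial genes, stood 2.85 ± 0.38 and 3.45 ± 0.23 higher in BAT on the log2 scale.

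Prdm16, a coregulator of the brown fat program, was at 30.01 to 44.4 CPM in BAT and 14.1 to 22.4 CPM in iWAT (log2 0.97 ± 0.17). Its difference was 0.365 and was not called on log2 of FPKM plus 0.1 (adjusted p = 0.0575). Ebf2, a transcription factor of brown precursors, was at 65.1 to 76.7 and 33.9 to 45.8 CPM (log2 0.72 ± 0.11). The Ebf2 difference was 0.11 and was not called on log2 of FPKM plus 1. Irf4 (log2 1.14 ± 0.51, adjusted p = 0.0526) and Lhx8 (log2 0.81 ± 0.37, adjusted p = 0.0551) missed the threshold in this fit. Irf4 passed it without BAT replicate 3, 4 or 5 in turn (adjusted p = 0.0469, 0.0395 and 0.0466) and in the fit of the 10 libraries alone. Lhx8 passed it without iWAT replicate 2 or BAT replicate 3 (adjusted p = 0.0232 and 0.0267). Among genes proposed as brown markers, Epsti1 was higher in iWAT (log2 -2.08 ± 0.30), as was Eva1b (log2 -0.71 ± 0.19). The Eva1b call was lost with the muscle list mean as a covariate (log2 -0.46, adjusted p = 0.111). Epsti1 was at 4.84 to 10.9 CPM in iWAT and at 1.5 to 2.28 CPM in BAT. Among secreted factors, Bmp8b and Fgf21 were at low levels. Bmp8b, a bone morphogenetic protein made by brown fat, stood at 0.32 to 0.788 CPM in BAT and at 0 in 3 iWAT libraries. Fgf21, a hormone of fuel stress, was at 0.204 to 1.5 and 0.0203 to 0.305 CPM (log2 2.11 ± 0.86, adjusted p = 0.031). The Fgf21 call was lost without iWAT replicate 1, 4 or 5 and without BAT replicate 1 or 4 (adjusted p = 0.0539 to 0.122).

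**Figure D2:**
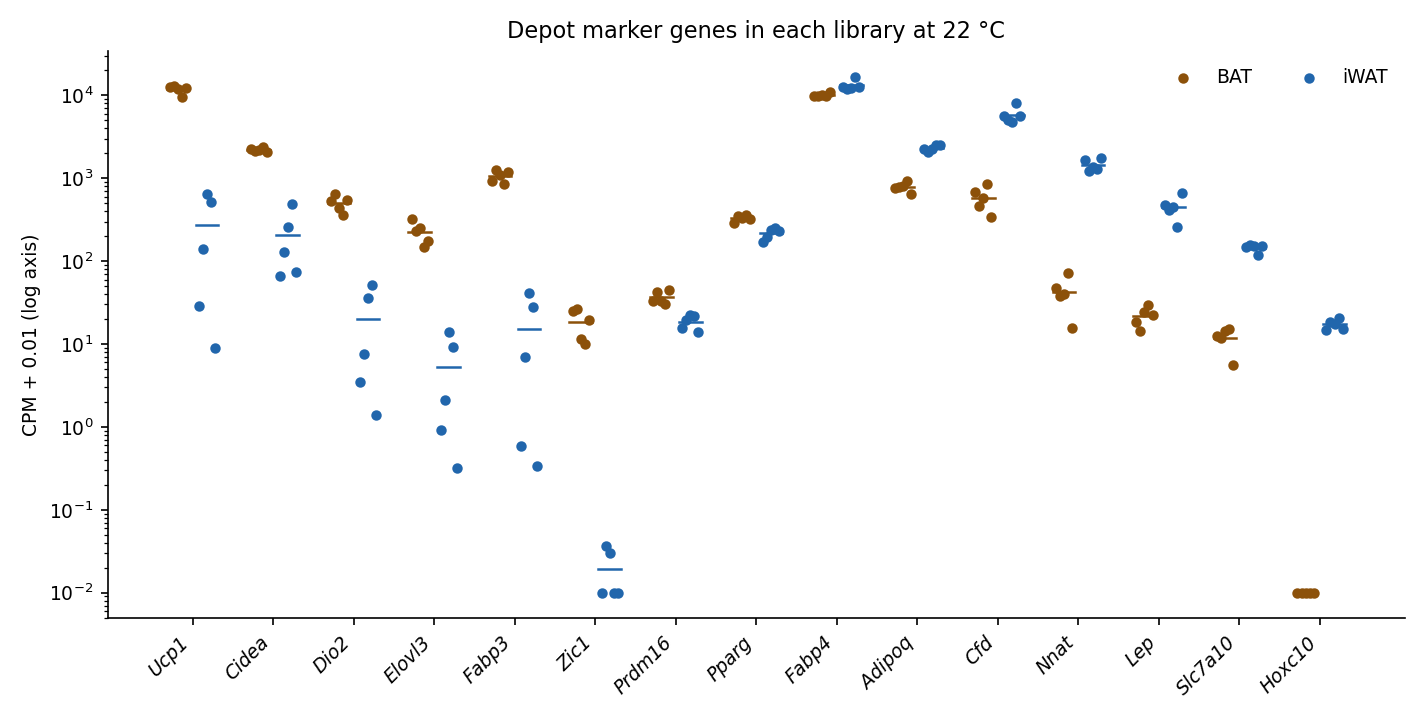
CPM plus 0.01 on a log axis for 15 marker genes in each BAT (brown) and iWAT (blue) library at 22 °C. Points run from replicate 1 to 5 from left to right and lines are group means. Ucp1, Dio2, Elovl3 and Fabp3 spread over more than a factor of 10 among iWAT libraries, with replicates 3 and 4 highest, while Hoxc10 was at 0 counts in all BAT libraries.

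Markers proposed for white adipocytes all pointed to iWAT. Of 16 fixed and 15 tested, 15 were higher in iWAT, with a median log2 difference of -3.32 (-2.98 on log2 of FPKM plus 1). Hoxc10, a member with no count in BAT, passed the count filter through iWAT alone, so the filter fixed its direction. Lep, the satiety hormone leptin, was at 471, 415, 451, 259 and 665 CPM in iWAT. In BAT it was at 18.3, 14.5, 24.6, 29.5 and 22.6 CPM (log2 -4.37 ± 0.46, adjusted p = 2.39e-09). Nnat, a small membrane protein, was at 1228 to 1733 CPM in iWAT and 15.7 to 71.1 CPM in BAT (log2 -5.09 ± 0.57). Retn (resistin) differed by -3.72 ± 0.27 and the amino acid transporter Slc7a10 by -3.62 ± 0.26. Nnmt, a methyltransferase of nicotinamide, had the smallest difference of the list at -1.10 ± 0.15.

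Beige adipocyte markers proposed in the literature went in both directions. Of 15 tested, 9 were higher in iWAT and 3 in BAT, with a median of -1.64. The list includes Hoxc9, which passed the count filter through iWAT alone, so the filter partly fixed this tally and its median. Tmem26 (log2 -4.91 ± 0.86) and Tbx1 (log2 -3.40 ± 0.68) were higher in iWAT, at levels of at most 1.11 and 2.04 CPM there. Shox2, a limb patterning factor, was at 17.4 to 30.6 CPM in iWAT and 0.457 to 4.35 CPM in BAT. Against these, P2rx5, an ATP-gated channel, was higher in BAT (log2 1.90 ± 0.18, 55.3 to 73.9 against 12.9 to 26.5 CPM). Slc36a2, a proton-coupled amino acid transporter, was at 521 to 581 CPM in BAT and 216 to 398 CPM in iWAT (log2 1.03 ± 0.12). Fgf21, given above, had the largest difference of the 3 toward BAT (log2 2.11 ± 0.86), and its call was lost when some single libraries were left out.

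Genes common to both kinds of adipocyte split. Of 26 tested, 10 were higher in BAT and 12 in iWAT (median -0.04). On log2 of FPKM plus 1 the counts were 4 and 17 and the median -0.64, where 1966 and 9302 of all 14089 genes were called and their median was -0.34. Adipoq, the hormone adiponectin, was at 2064 to 2554 CPM in iWAT and 650.4 to 940.0 CPM in BAT (log2 -1.56 ± 0.17). Plin4, a lipid droplet coat protein, was at 1856 to 3081 CPM in iWAT and 378 to 539 CPM in BAT (log2 -2.51 ± 0.16). Fabp4 (log2 -0.40 ± 0.10) and Plin1 (log2 -0.48 ± 0.09) were also higher in iWAT. Both calls were lost with the muscle list mean as a covariate, where the log2 differences were -0.34 for Fabp4 (adjusted p = 0.207) and -0.40 for Plin1 (adjusted p = 0.0502). Gpd1, which supplies glycerol 3-phosphate and shuttles electrons, was the largest difference toward BAT (log2 2.54 ± 0.18). The insulin-responsive glucose transporter Slc2a4 followed Cebpb and Retsat in size (log2 1.25 ± 0.11). Pparg, the master regulator of adipocytes, stood at 287 to 365 CPM in BAT and 168 to 248 CPM in iWAT (log2 0.61 ± 0.09, and 0.02 on log2 of FPKM plus 1, not called). Lpl, which frees fatty acids from lipoproteins, did not pass the test (log2 0.12 ± 0.11, adjusted p = 0.335) and was -0.49 on log2 of FPKM plus 1, where it was called.

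Patterning genes held some of the largest differences. Hox genes lie in 4 clusters, and the order of the genes in a cluster mirrors the body axis, with low paralogue numbers toward the head. Of 16 Hox genes of paralogue groups 9 to 13, 6 had enough counts to be tested, and all 6 were higher in iWAT (median -5.70). Hoxc10, Hoxa10 and Hoxc9 passed the count filter through iWAT alone, so the filter partly fixed this tally and its median. Hoxc10 (ENSMUSG00000022484) was at 14.8, 18.7, 17.3, 20.5 and 15.2 CPM in iWAT, and had no count in any of the 5 BAT libraries. Set against a floor of 3 counts over the BAT group, that is at least 750-fold higher in iWAT. Hoxa10 was at 8.61 to 13.4 CPM in iWAT with 1 count in all of BAT, a ratio of 1454 (95% counting interval 261 to 57469). Hoxc9 had 10 counts over the BAT libraries and 2116 over the iWAT libraries. Hoxa9 was at 13.96 to 27.6 CPM in iWAT and 0.274 to 1.92 CPM in BAT (log2 -4.49 ± 0.43).

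Anterior Hox genes were not simply the mirror image. Of 20 tested members of paralogue groups 1 to 8, 5 were higher in BAT and 9 in iWAT. Those higher in BAT belonged to the Hoxa and Hoxc clusters: Hoxa2, Hoxa4, Hoxa5, Hoxc4 and Hoxc5. The Hoxa2 call (log2 0.87) was lost on log2 of FPKM plus 1 (log2 0.14, adjusted p = 0.351) and with the muscle list mean as a covariate (adjusted p = 0.146). Hoxa5 was at 29.9 to 37.6 CPM in BAT and 5.03 to 6.23 CPM in iWAT (log2 2.52 ± 0.12, adjusted p = 1.58e-15). Hoxa4 had a log2 difference of 2.83 ± 0.17, Hoxc4 of 1.90 ± 0.13 and Hoxc5 of 1.49 ± 0.14. Paralogue groups 4 and 5 of the Hoxb and Hoxd clusters did not follow. Hoxb4 did not pass the test (log2 -0.06 ± 0.11), while Hoxb5 (log2 -1.50 ± 0.27) and Hoxd4 (log2 -1.83 ± 0.34) were higher in iWAT. Hoxc8 was the most abundant Hox gene of iWAT per length, at 35.5 FPKM against 2.79 FPKM in BAT (log2 -3.07 ± 0.31). In BAT the most abundant was Hoxa5 at 14.9 FPKM.

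**Figure D3:**
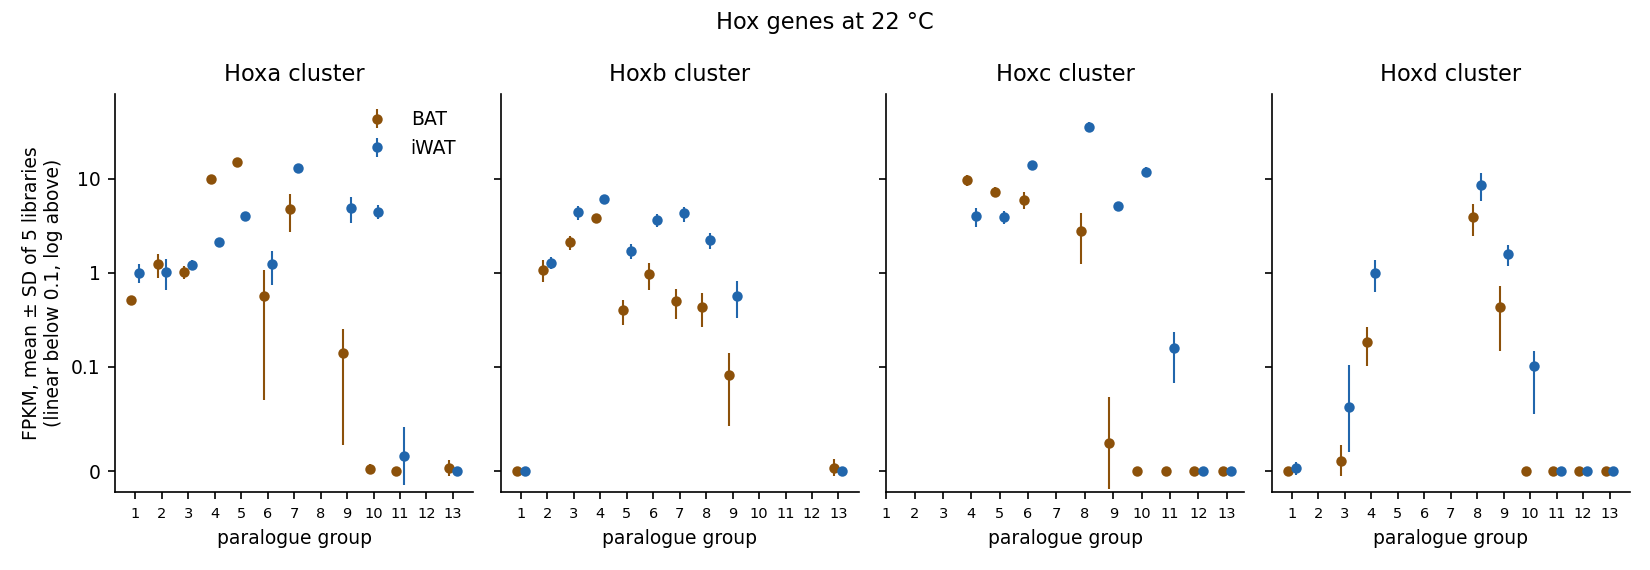
Mean FPKM ± SD of 5 libraries (vertical axis, linear below 0.1 and log above) of each Hox gene in BAT (brown) and iWAT (blue) at 22 °C, by cluster and paralogue group. BAT was the higher depot at groups 4 and 5 of the Hoxa and Hoxc clusters, and iWAT at group 9 of all 4 clusters and at group 10 of the Hoxa, Hoxc and Hoxd clusters.

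Other patterning factors differed in both directions, with 5 of 24 tested members higher in BAT and 13 in iWAT. Zic1 (ENSMUSG00000032368), a zinc finger factor of dorsal mesoderm and brain, was at 24.8, 26.8, 11.4, 10.005 and 19.7 CPM in BAT. All iWAT libraries together held 2 counts, a ratio of 2028 (95% counting interval 561 to 16753). Tbx5, a factor of the forelimb and heart, was higher in BAT (log2 2.13 ± 0.29, 5.91 to 12.5 against 0.509 to 2.75 CPM). Irx1 (log2 -4.04 ± 0.75) and Emx2 (log2 -4.22 ± 0.55) were higher in iWAT. Tbx15 was at 4.43 to 27.6 CPM in BAT and 13.9 to 24.9 CPM in iWAT (log2 -0.41 ± 0.32, adjusted p = 0.261). Without BAT replicate 5 Tbx15 was called (log2 -0.84, adjusted p = 0.0164). It was also called without the 3 libraries with most muscle mRNA (log2 -1.06, adjusted p = 0.00459). The same held with the muscle list mean as a covariate (log2 -1.68, adjusted p = 0.0224) and on log2 of FPKM plus 1 (log2 -0.945, adjusted p = 0.000989).

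The machinery of respiration was higher in BAT almost without exception. All 36 nuclear-encoded subunits of complex I passed the test toward BAT (median log2 1.48), as did 14 of 14 genes of complexes II and III (median 1.98). So did 14 of 15 nuclear genes of cytochrome c oxidase, 34 of 34 of the mitochondrial ribosome (median 1.16) and 13 of 13 mitochondrially encoded genes (median 1.95). On log2 of FPKM plus 1 these counts were 34, 14, 13, 25 and 13, with none higher in iWAT, and the complex I median was 0.92. Without the 3 libraries with most muscle mRNA (iWAT replicate 2, BAT replicates 4 and 5) they were 35, 14, 14, 33 and 13. Ndufv1, the subunit that accepts electrons from NADH, was at 828, 787, 744, 806 and 746 CPM in BAT. In iWAT it was at 124, 139, 157, 234 and 138 CPM (log2 2.31 ± 0.14, adjusted p = 6.1e-14). Uqcrc1, a core protein of complex III, had a log2 difference of 2.62 ± 0.16. Cox6a2, the muscle form of a cytochrome c oxidase subunit, missed the threshold (log2 2.75 ± 1.32, adjusted p = 0.0676). Its level was 0.548 to 35.4 CPM in BAT and 11.4 CPM at most in iWAT. Without iWAT replicate 2 Cox6a2 was called toward BAT (log2 9.25), as it was without BAT replicate 2 (log2 3.06), and with the muscle list mean as a covariate it was called the other way (log2 -1.03).

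ATP synthase was the exception within respiration. Its catalytic subunits Atp5f1a (log2 2.01 ± 0.13) and Atp5f1b (log2 1.92 ± 0.13) were higher in BAT, with 14 of 18 genes in that direction. Atp5if1, the inhibitor of the enzyme's ATP hydrolysis, was higher in iWAT (log2 -1.11 ± 0.15, 10.7 to 13.98 against 4.47 to 6.7 CPM). The membrane ring is built from the product of 3 genes. Of these Atp5mc2 was higher in BAT (log2 0.91), Atp5mc1 did not pass the test (log2 -0.38) and Atp5mc3 was higher in iWAT (log2 -0.31 ± 0.13, adjusted p = 0.036). The Atp5mc3 call was lost without iWAT replicate 1, 4 or 5 and without BAT replicate 2 or 3 (adjusted p = 0.0528 to 0.183).

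Promoters of complex I genes are shown because these 36 genes moved in 1 direction, and because sites of NRF1, a transcription factor of respiratory genes, are known in such promoters. The 250 bases before the RefSeq start (GRCm38.p6) of 32 of the 36 genes were at hand, and 6 of them (18.8%) held the NRF1 site searched here (GCGC, any base, then TGCGC) on either strand. Of all tested genes with such a window, 838 of 10934 held it (7.66%). Among genes higher in BAT by a log2 of at least 1 it was 7.34%, and among those higher in iWAT 3.04%. Other mitochondrial lists varied: the site was in 3 of 15 windows for the tricarboxylic acid cycle, 5 of 29 for the mitochondrial ribosome, 2 of 9 for complexes II and III, 1 of 11 for cytochrome c oxidase, 2 of 24 for fatty acid oxidation and 0 of 13 for pyruvate entry. White adipocyte markers, all called toward iWAT where tested, held it in 2 of 12 windows (16.7%). The half-site AAGGTCA, bound by estrogen-related receptors, was in 4.79% of the BAT-higher, 2.52% of the iWAT-higher and 2.84% of all tested windows. The ETS site (CCGGAAG, any base, then G) was in 4.94%, 2.21% and 5.96% of the same windows, and in 0 of 32 windows of complex I, where the half-site was in 3. These are matches of letters, with no measure of binding. The windows with matches included 3 genes with log2 differences of 1.88, 1.64 and 1.47, printed from 5′ to 3′ on the strand of the gene with the matches in capitals.
Ndufa8, chr2:36049339-36049588, minus strand: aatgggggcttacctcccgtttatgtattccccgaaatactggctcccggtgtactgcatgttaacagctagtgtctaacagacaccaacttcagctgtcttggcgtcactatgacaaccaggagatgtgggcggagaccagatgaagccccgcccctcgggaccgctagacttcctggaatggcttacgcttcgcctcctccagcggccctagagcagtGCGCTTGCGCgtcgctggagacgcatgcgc
Ndufa11, chr17:56717512-56717761, plus strand: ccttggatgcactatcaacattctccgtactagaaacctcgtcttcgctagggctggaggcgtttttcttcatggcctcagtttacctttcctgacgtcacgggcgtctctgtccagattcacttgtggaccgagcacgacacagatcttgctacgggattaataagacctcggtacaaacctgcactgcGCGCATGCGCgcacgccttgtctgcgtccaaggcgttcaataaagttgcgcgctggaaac
Ndufb4, chr16:37654369-37654618, minus strand: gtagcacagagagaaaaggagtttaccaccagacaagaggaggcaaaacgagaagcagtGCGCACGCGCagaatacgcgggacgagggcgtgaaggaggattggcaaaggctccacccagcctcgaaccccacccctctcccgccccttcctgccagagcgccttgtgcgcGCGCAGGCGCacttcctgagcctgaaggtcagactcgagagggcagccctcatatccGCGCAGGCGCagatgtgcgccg
In Ndufa8 the match lay 30 to 21 bases before the start and in Ndufa11 60 to 51 bases before it, while Ndufb4 held 3 matches.

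Fuel oxidation pathways were higher in BAT in the same way. All 18 genes of the tricarboxylic acid cycle passed the test toward BAT, each by at least 1.01 on the log2 scale, with a median of 2.16. Suclg1, a subunit of succinyl-CoA synthetase, was at 1232, 1254, 1156, 1184 and 1198 CPM in BAT. In iWAT it was at 85.1, 107, 140, 165 and 97.9 CPM (log2 3.34 ± 0.19). Ogdh, a dehydrogenase of the cycle, had a log2 difference of 2.84 ± 0.16. Of 30 genes of fatty acid oxidation, 27 were higher in BAT (median 1.57). Acsl5, an acyl-CoA synthetase, had the largest difference (log2 3.99 ± 0.30). Hadha, a subunit of the trifunctional protein, was at 3150 to 3235 CPM in BAT and 286 to 584 CPM in iWAT. The 2 forms of the entry enzyme went opposite ways: Cpt1b was higher in BAT (log2 3.77 ± 0.42) and Cpt1a in iWAT (log2 -0.71 ± 0.18). Cpt1a was at 21.7 to 29.96 CPM in BAT, still above Cpt1b at 14.3 to 19.7 CPM, on a scale that does not correct for length.

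Entry of pyruvate into mitochondria held 11 genes higher in BAT and 3 in iWAT. Pdk4, the kinase that shuts pyruvate dehydrogenase, was at 2126 to 2965 CPM in BAT. In iWAT it was at 103, 231, 416, 448 and 95.3 CPM (log2 3.34 ± 0.42), so replicates 3 and 4 were again the high ones. Pdk3, another kinase of this family, was higher in iWAT (log2 -1.24 ± 0.19), as was pyruvate carboxylase Pcx (log2 -0.46 ± 0.13). The Pcx call was lost with the muscle list mean as a covariate (log2 -0.31, adjusted p = 0.19). Of 25 genes of glucose uptake and glycolysis, 20 were higher in BAT (median 2.02). Pfkl, the liver form of phosphofructokinase, had a log2 difference of 3.03 ± 0.23 and the lactate dehydrogenase subunit Ldhb of 3.19 ± 0.23. Slc2a3, a glucose transporter of neurons and immune cells, was higher in iWAT (log2 -1.91 ± 0.29). Several glycolytic genes, such as Eno3 and Pgam2, are also muscle genes. Without the 3 libraries with most muscle mRNA 22 of the 25 were called toward BAT, and with the muscle list mean as a covariate 16.

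Fat synthesis was split by enzyme. Of 20 genes of de novo lipogenesis, 12 were higher in BAT and 2 in iWAT. Fasn, fatty acid synthase, was at 10171 to 17565 CPM in BAT and 2917 to 5038 CPM in iWAT (log2 1.74 ± 0.27). Elovl6, which extends palmitate, had a log2 difference of 3.18 ± 0.33. In contrast the desaturase Fads1 was higher in iWAT (log2 -1.84 ± 0.13), as was the regulator Srebf1 (log2 -0.51 ± 0.16). The Srebf1 call was lost without the 3 libraries with most muscle mRNA (adjusted p = 0.0532). For uptake of fatty acids and synthesis of triglyceride, 14 of 26 genes were higher in BAT and 7 in iWAT. These counts were 10 and 11 on log2 of FPKM plus 1. Fabp3, the heart fatty acid binding protein, was at 916, 1266, 1081, 864 and 1176 CPM in BAT. In iWAT it was at 0.582, 6.91, 41.4, 27.7 and 0.325 CPM (log2 6.11 ± 0.90), the largest difference of the list. Gk, glycerol kinase, which lets cells reuse glycerol, was at 1026 to 1610 CPM in BAT and 13.8 to 132 CPM in iWAT. Isoforms traded places here too: the acyltransferase Gpat3 was higher in iWAT (log2 -2.33 ± 0.22) and Gpam in BAT (log2 2.17). Among transporters Slc27a1 was higher in iWAT (log2 -1.69 ± 0.16) and Slc27a2 in BAT.

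**Figure D4:**
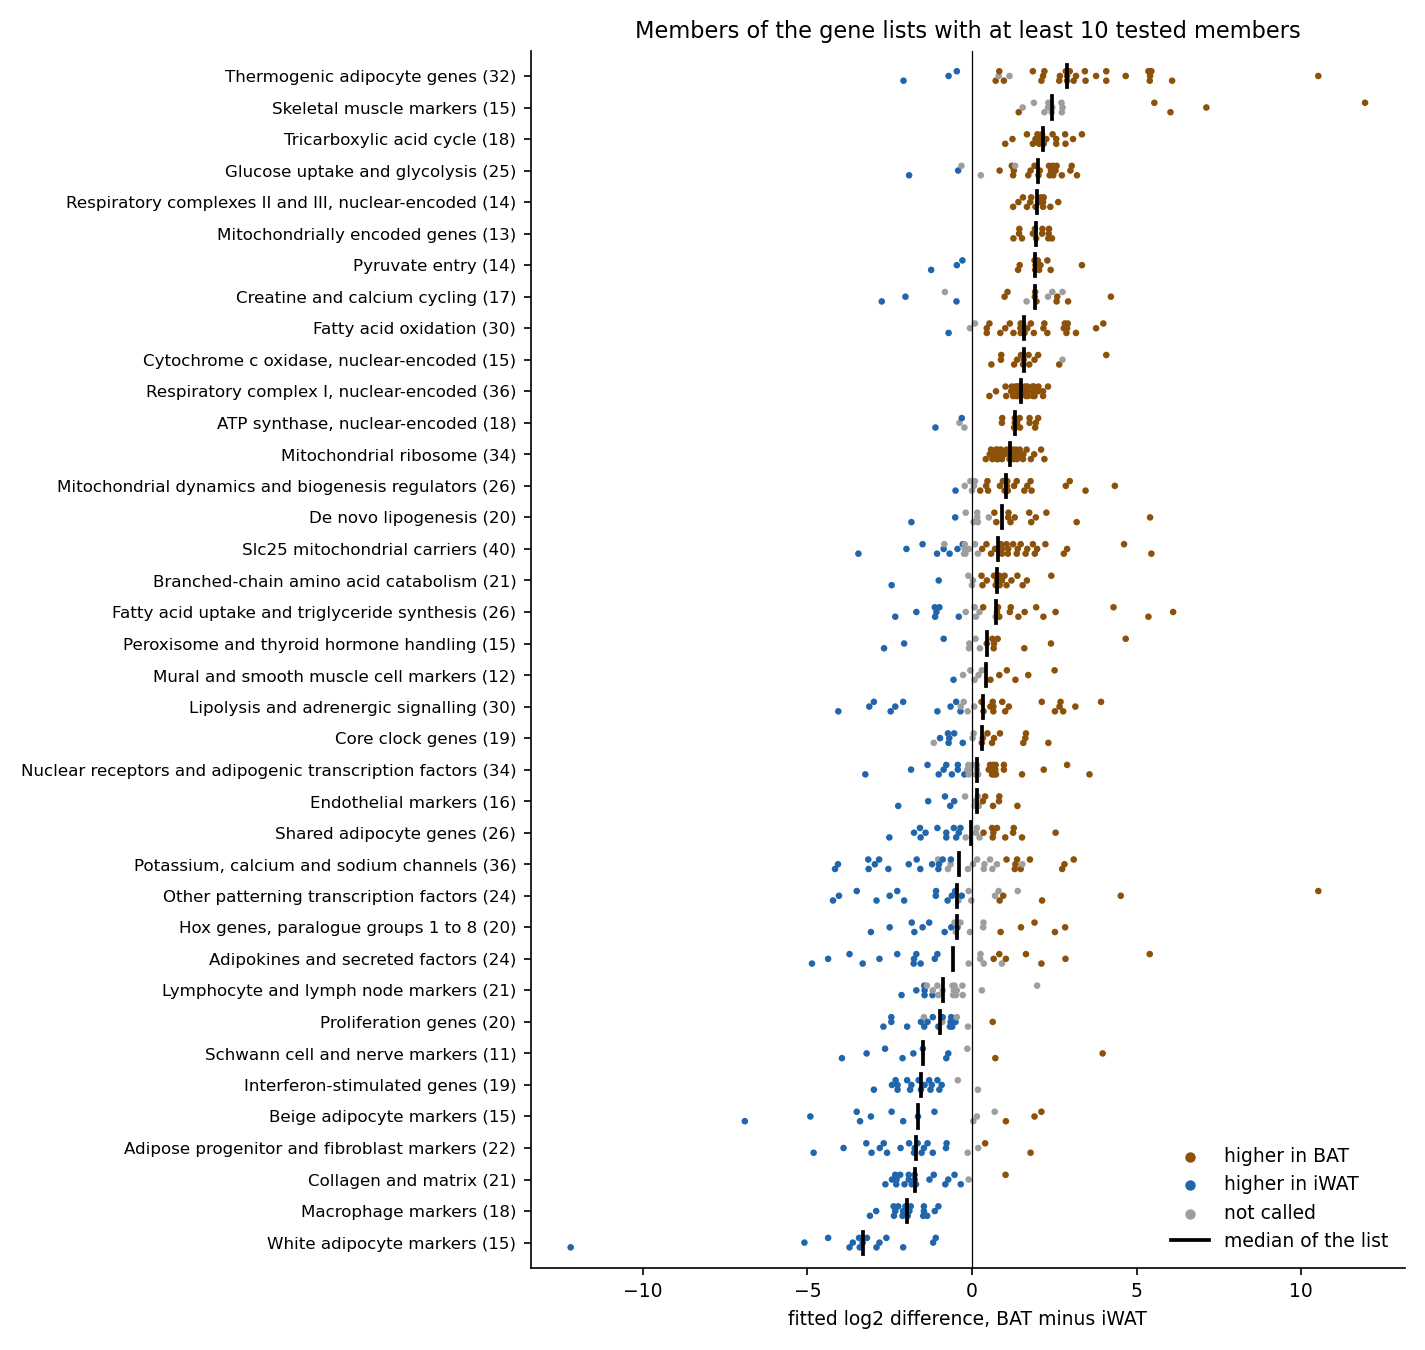
Fitted log2 difference between BAT and iWAT at 22 °C of each tested member (points) of the gene lists with at least 10 tested members, with the number of tested members in parentheses and the median of the list as a black bar. All members of the complex I, complexes II and III, cytochrome c oxidase and tricarboxylic acid cycle lists lie to the right of 0, ATP synthase has members on both sides, and macrophage and white adipocyte markers lie to the left with no member above 0.

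Receptors and signalling of lipolysis differed between depots member by member. Of 30 tested genes, 16 were higher in BAT and 10 in iWAT, with a median of 0.32 (9 and 16, median -0.25, on log2 of FPKM plus 1). Among receptors, Adrb1 (log2 2.12 ± 0.29) and Adra1a (log2 2.66 ± 0.17) were higher in BAT. Adrb3, the main beta-adrenergic receptor of mouse fat, was higher in iWAT, at 397 to 527 CPM against 185 to 256 CPM (log2 -1.05 ± 0.14). The antilipolytic receptors Hcar2 (log2 -3.12 ± 0.27), for ketone bodies, and Hcar1 (log2 -2.33 ± 0.25), for lactate, were higher in iWAT. So was Adra2a, an inhibitory adrenergic receptor, at 0.325 to 1.39 CPM. Adenylyl cyclases went opposite ways: Adcy3 was at 247 to 495 CPM in BAT and 13.7 to 38.8 CPM in iWAT (log2 3.92 ± 0.36). Adcy5 was at 3.23 to 15.7 CPM in BAT and 132 to 144 CPM in iWAT (log2 -4.06 ± 0.34). Gnas, the stimulatory G protein subunit, was at 3065 to 3411 CPM in BAT and 438 to 542 CPM in iWAT (log2 2.77 ± 0.11, adjusted p = 3.93e-17). The phosphodiesterase Pde4d (log2 3.14 ± 0.23) and the droplet protein Plin5 (log2 2.52 ± 0.29) were also higher in BAT.

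Routes of heat production that do not use UCP1 gave mixed values. Alpl, a phosphatase with a role in creatine cycling, was higher in BAT (log2 2.92 ± 0.26), while the creatine synthesis enzymes Gatm (log2 -2.74 ± 0.37) and Gamt (log2 -2.02 ± 0.36) were higher in iWAT. Ckmt2, a mitochondrial creatine kinase shared with muscle, was at 3.38 to 125 CPM in BAT and 11.8 CPM at most in iWAT (log2 4.22 ± 1.33). With the muscle list mean as a covariate the Ckmt2 difference was 0.60 and was not called. Of 40 mitochondrial carriers of the Slc25 family, 24 were higher in BAT and 8 in iWAT. Slc25a34 (log2 4.62 ± 0.48) stood next to Ucp1 in size, and the dicarboxylate carrier Slc25a10 was at the other end (log2 -3.45 ± 0.26, 203 to 264 CPM in iWAT against 14.4 to 25.7 CPM). Of 15 tested genes of peroxisomes and thyroid hormone handling, 8 were higher in BAT and 3 in iWAT (median 0.45). Abcd2, a peroxisomal transporter of very long fatty acids, was higher in iWAT (log2 -2.67 ± 0.19). Abcd3 went the other way (log2 2.40 ± 0.18). Breakdown of branched-chain amino acids had 16 of 21 genes higher in BAT (10 on log2 of FPKM plus 1), with the first enzymes Bcat2 (log2 -1.01 ± 0.21) and Bcat1 (log2 -2.44 ± 0.39) higher in iWAT.

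Transcription factors of metabolism differed in both directions. All 3 estrogen-related receptors, which act with the PGC-1 coactivators, were higher in BAT. Esrra stood at 183 to 212 CPM against 49.2 to 73.8 CPM (log2 1.81 ± 0.13), Esrrg at 34.4 to 45.0 CPM against 1.35 to 11.3 CPM, and Esrrb at 1.25 to 2.52 CPM against 0.0563 to 0.122 CPM. Ppara, a fatty acid sensor, was higher in BAT (log2 2.89 ± 0.38), as was the immediate early receptor Nr4a1 (log2 3.57 ± 0.57). The estrogen receptor Esr1 was higher in iWAT (log2 -1.35 ± 0.13). Of 34 nuclear receptors and adipogenic factors tested, 15 were higher in BAT and 10 in iWAT. Their median was 0.15, and it was below 0 with upper-quartile factors (-0.04) and on log2 of FPKM plus 1 (-0.29). Clock genes also differed, with 10 of 19 higher in BAT and 6 in iWAT, led by the repressors Nfil3 (log2 2.32 ± 0.28) and Ciart (log2 1.64 ± 0.26). On log2 of FPKM plus 1 the clock counts were 3 and 9 and the median changed from 0.30 to -0.25. The labels give no hour of sampling.

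Markers of stromal and immune cells were mostly higher in iWAT. Of 22 genes of progenitors and fibroblasts, 18 were higher in iWAT (median -1.70), and of 21 matrix genes 19 (median -1.74). Dpp4, a marker of early progenitors, was at 13.8 to 66.3 CPM in iWAT and 2.72 to 8.24 CPM in BAT (log2 -3.21 ± 0.53). Gsn, an actin-severing protein, was at 5701 to 6733 CPM against 590.5 to 1056 CPM (log2 -3.05 ± 0.20). Against the list, Dlk1 (log2 1.78 ± 0.40) and Pdgfrb (log2 0.40 ± 0.14) were higher in BAT. On log2 of FPKM plus 1 Pdgfrb lay on the other side of 0 (-0.18, not called), and its call was lost without iWAT replicate 4 or BAT replicate 1 (adjusted p = 0.0551 and 0.066). Among matrix genes the collagen Col12a1 was the only one called toward BAT (log2 1.02 ± 0.27). That call was lost on log2 of FPKM plus 1 (adjusted p = 0.112).

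All 18 macrophage markers were higher in iWAT (median -1.98), with a summed level of 438 to 1079 CPM there and 175 to 308 CPM in BAT. Mrc1, the mannose receptor, was at 40.3 to 107 CPM against 14.9 to 29.5 CPM, and Clec10a differed by -2.91 ± 0.23. Of 19 interferon-stimulated genes, 17 were higher in iWAT (median -1.55), among them Ifi27l2a (log2 -2.98 ± 0.29) and Irf7 (log2 -2.43 ± 0.34). Proliferation genes were higher in iWAT for 15 of 20, at low levels, with Cdk1 at 1.79 to 2.56 CPM against 0.203 to 0.548 CPM. Tyms, which makes thymidylate, was the only one higher in BAT (log2 0.63 ± 0.16, and 0.01 on log2 of FPKM plus 1). Lymphocyte markers were low in both depots, summing to 34.5 to 89.8 CPM in iWAT and 21.3 to 31.4 CPM in BAT. Of 21 tested, 6 were called, all toward iWAT, a share below the 34.5% of all tested genes called that way. In list means of log2(CPM + 0.1), iWAT replicates 4 and 5 (-0.3673 and -0.670) lay within the BAT range (-0.852 to -0.3668).

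Vessels, nerve and blood gave values in both directions. Of 16 endothelial markers, 6 were higher in BAT and 5 in iWAT, near the shares of all tested genes (32.4% and 34.5%). Their median of 0.14 was below 0 with upper-quartile factors (-0.05) and on log2 of FPKM plus 1 (-0.42). Eng, a coreceptor of the TGF-beta family, was higher in BAT (log2 1.38 ± 0.13) and Lyve1, of lymphatic vessels and some macrophages, in iWAT (log2 -2.24 ± 0.57). Among 12 mural cell markers, 6 were higher in BAT, led by Des (log2 2.51 ± 0.37), which muscle also makes. Their median was 0.43, and -0.15 on log2 of FPKM plus 1. Of 11 Schwann cell and nerve genes, 8 were higher in iWAT, including the myelin gene Prx (log2 -3.20 ± 0.46). S100b, commonly used to mark Schwann cells, went the other way, at 71.6 to 83.3 CPM in BAT and 4.08 to 6.38 CPM in iWAT (log2 3.97 ± 0.24). All 6 tested genes of erythrocytes were higher in BAT (summed level 395 to 682 CPM against 132 to 188 CPM). The alpha globin copies are nearly identical, so the split of reads between them is uncertain.

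Skeletal muscle markers varied widely among the libraries of each depot. Myh4, a fast myosin, was at 532, 85.4, 639, 1440 and 2080 CPM in BAT replicates 1 to 5. It was at 1300 CPM in iWAT replicate 2 and had no count in the other 4 iWAT libraries. In those 4 libraries 3 to 5 of the 16 markers had no count, and Myl1 alone was at 49.1 to 53.6 CPM. Of 15 tested muscle genes, 5 were called, all toward BAT. Without iWAT replicate 2 it was 15 of 15. Acta1 (log2 2.73 ± 1.46, adjusted p = 0.0993) and Ckm (log2 2.31 ± 1.72, adjusted p = 0.237) missed the threshold with it and passed without it (log2 7.87 and 13.9). Myh7, the slow myosin, had no count in iWAT, and its 14.5 ± 14.9 CPM in BAT ranged from 0 to 34.2 CPM (at least 1116-fold, from 3 counts over the iWAT group). The part of muscle mRNA in other results was not tested beyond leaving out these libraries and the covariate.

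**Figure D5:**
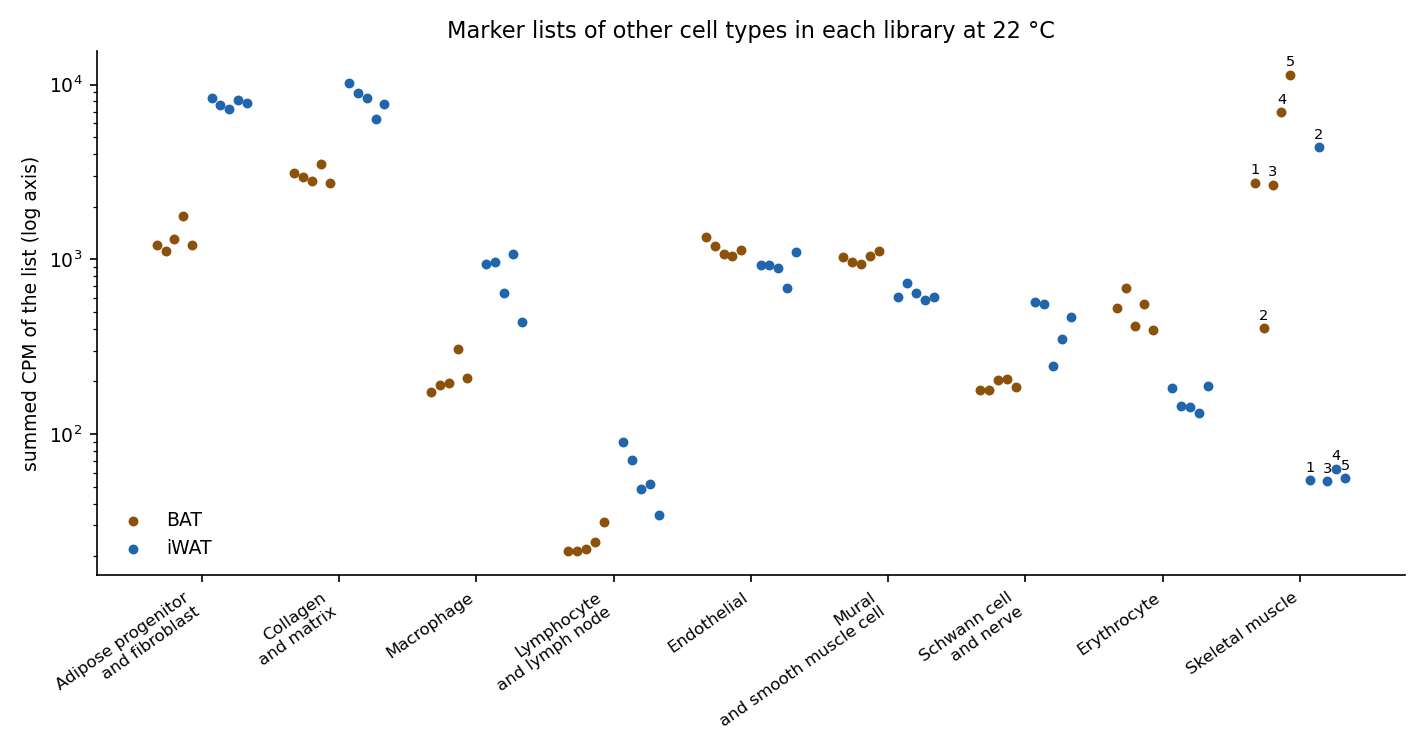
Summed CPM (log axis) of marker lists of other cell types in each BAT (brown) and iWAT (blue) library at 22 °C, with replicates 1 to 5 from left to right and numbered for skeletal muscle. Macrophage sums are 438 to 1079 CPM in iWAT and 175 to 308 CPM in BAT, and the muscle sum of iWAT replicate 2 (4364 CPM) lies within the range of BAT.

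The largest differences without overlap of libraries, by a fixed rule of 15 per direction, brought genes outside these lists. Toward BAT, Lgr6, a receptor for R-spondins, was at 180, 192, 182, 144 and 208 CPM in BAT and below 0.975 CPM or at it in iWAT (log2 9.22 ± 0.87). Kng2, a kininogen, was at 117 to 178 CPM against 0.369 to 0.507 CPM (log2 8.30 ± 0.70). Car14, a membrane-bound carbonic anhydrase, was at 40.6 to 61.8 CPM against 0.061 to 0.942 CPM. The kinase Sgk2, the organic anion transporter Slco4a1 and the prostaglandin D synthase Ptgds had log2 differences of 7.23 ± 0.83, 6.91 ± 0.64 and 6.81 ± 0.54. Fam131c, Cabcoco1 and Dnajc22 had differences of 6.93, 6.72 and 6.18. Myl2, Myh2 and Mb (myoglobin), 3 of the 15, are muscle genes. Mb was highest in BAT replicate 5 (309 CPM) and, within iWAT, in replicate 2 (9.03 CPM). Myl2 was highest in BAT replicate 4 (15.3 CPM) and had no count in iWAT replicate 2.

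Toward iWAT, Alb, serum albumin, was at 23.1, 10.4, 31.2, 19.5 and 19.8 CPM in iWAT and 0.163, 0.0457, 0.0315, 0.0804 and 0.034 CPM in BAT (log2 -8.18 ± 0.42). C6, of the complement cascade, differed by -6.91 ± 0.76 and the secreted phosphoprotein Spp1 (osteopontin) by -5.34 ± 0.79. Ugt8a, which makes a myelin lipid, and Cldn19, a claudin of Schwann cells, were at 2.82 to 12.7 and 1.28 to 8.04 CPM in iWAT. Prtn3, a serine protease of neutrophils, was at 14.3 to 20.3 CPM in iWAT and 0.0681 to 0.723 CPM in BAT (log2 -5.62 ± 0.59). Akr1c18 (log2 -5.93 ± 0.79), which inactivates progesterone, and Plac8 (log2 -5.37 ± 0.62) completed the list with Mup13, Mup14 and Mup17. The Mup genes, carriers of pheromones, are near-identical copies, and the counts of each copy are uncertain. Apart from Hoxc10 and Hoxa10, genes averaging 2 CPM or more in iWAT with no more than 3 counts in all of BAT were Fam110c, Mup7, Slc5a7 and Comp.

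The same comparison was made among the 20 libraries taken after cold. They are other samples than those whose levels are given above, but they share the fit, and with it the gene filter, the scaling and the estimate of spread. The depots differed in 9330 of the 14089 genes after 6 h (66.2%) and in 8958 after 24 h (63.6%). Of the 1674 genes higher in BAT by a log2 of at least 1 at 22 °C, 99.3% had the same sign after 6 h, and 92.5% were also called. After 24 h these shares were 99.3% and 93.8%. Of the 2625 genes higher in iWAT the shares were 98.2% and 84.9% after 6 h, and 98.1% and 81.7% after 24 h. The sizes were smaller: the median of the BAT-higher genes was 1.65 at 22 °C, 1.34 after 6 h and 1.33 after 24 h. A smaller median in other samples can follow from choosing genes by their size at 22 °C. Ucp1 differed by 5.45 ± 0.77 at 22 °C, 2.92 ± 0.69 after 6 h and 2.26 ± 0.67 after 24 h, and the change to 24 h passed the test (adjusted p = 0.0312). Hoxa5 differed by 2.52 ± 0.12, 2.66 ± 0.12 and 2.53 ± 0.12. Lep differed by -4.37, -5.36 and -4.99, and Zic1 had at most 1 count in the iWAT libraries of each cold group.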

How the data were processed

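Poly(A) RNA of BAT and iWAT was sequenced as 30 libraries in 6 groups of 5. Per the submitters' processing notes, reads were aligned to GRCm39 with HISAT2 and counted with HTSeq, with no versions, and the strand setting is not given in the sources used here. The deposited counts per gene were used unnormalized for all tests. The deposited FPKM values were made by the authors, and each equals the count divided by gene length and by the total of the table (checked on 4762 genes). They served for levels between genes and as an alternative.

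Counts of all 30 libraries entered 1 quasi-likelihood fit of 6 groups (edgeR 4.0.16, R 4.3.3) after filterByExpr with a minimum count of 10 and TMM scaling. The contrast was BAT minus iWAT at 22 °C, with Benjamini-Hochberg adjustment over all 14089 genes. A call is an adjusted p under 0.05. Standard errors are approximate. On simulated counts with 200 changed genes among 14089, 87% of changes of log2 1 and 99% of log2 2 were recovered, with 14 false calls among 200. The changed genes were above a count floor and balanced between the directions, and no other gene differed. In the data 66.9% of genes were called, so these rates do not measure the error of those calls. The main fit did not pair samples by replicate number, since no label says that equal numbers mark 1 mouse. Alternatives were other scalings and filters, DESeq2 1.42.0, limma 3.58.1 on log2 FPKM, a replicate block, and each library left out. The 2 alternatives on muscle mRNA were chosen after seeing the data.

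The comparison and the 42 gene lists were chosen with earlier results of these data known. Genes named are the 15 largest differences per direction without overlap and with a mean of at least 5 CPM in the higher depot, up to 4 called members per list and up to 2 against its majority, 24 fixed genes, the 10 highest FPKM per depot, and genes with at most 3 counts in 1 depot. Predicted genes and receptor segments were left out. A few other list members are named beside these, after their values were seen. Promoter windows are those of RefSeq on GRCm38.p6, and no coordinates on the build of the counts are given. The motifs replaced stricter ones that had been tried first. Some members of the lists are not reported here. Intervals of count ratios cover counting error only, and those of log2 differences come from the fit and include the spread between libraries.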

Additional observations from a re-analysis of the deposited data

Results flagged for a closer look

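Of 138 groups of 5 values checked (the 24 fixed genes in CPM, the 42 list means of log2(CPM + 0.1), the library totals and 2 shares of counts, in each depot), 13 had 1 library set apart from the other 4 by Dixon's criterion, which chance gives in about 1 in 20 groups. In iWAT, replicate 4 was the high library for complex I at 6.83 (others 5.89 to 6.01), complexes II and III at 8.36 (7.33 to 7.58), ATP synthase at 7.56 (6.74 to 6.88) and the mitochondrial ribosome at 5.37 (4.75 to 4.85). The same library was high for Fabp4 at 1.69e+04 CPM (1.2e+04 to 1.26e+04) and low for Slc7a10 at 119 CPM (146 to 157). Replicate 2 of iWAT was high for skeletal muscle markers at 6.54 (-1.43 to -1.25) and for creatine and calcium cycling, which shares genes with muscle, at 4.15 (1.54 to 1.70). Replicate 5 of iWAT was low for Ebf2 at 33.9 CPM (44.9 to 45.8) and Tmem26 at 0.122 CPM (0.863 to 1.11). In BAT, replicate 4 was high for progenitor markers at 4.03 (3.41 to 3.55) and for collagen and matrix at 6.24 (5.82 to 5.86), and replicate 5 was low for Plin1 at 1.07e+03 CPM (1.21e+03 to 1.26e+03).

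For 4 of the 24 fixed genes the difference between the depots changed with cold by the interaction term of the edgeR model, adjusted over all genes. The log2 difference of Ucp1 changed by -3.20 from 22 °C to 24 h at 6 °C (adjusted p = 0.0312), that of Dio2 by -2.77 (adjusted p = 0.0312) and that of Cpt1b by -2.09 (adjusted p = 0.0175). For Fasn it changed by -1.34 to 6 h (adjusted p = 0.0253) and by -1.35 to 24 h (adjusted p = 0.027). In all of these BAT exceeded iWAT by less after cold.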

How the results depend on the processing

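The number of genes called was within 1.5 times the main 9427 under all 22 alternatives. On log2 of FPKM plus 1, 1966 genes were higher in BAT and 9302 in iWAT, and 517 exceeded a log2 of 1 toward BAT. With 0.1 added, these were 1999, 9288 and 828, with 4030 toward iWAT. Each library left out in turn gave 8886 to 9382 calls, 4298 to 4549 toward BAT and 4588 to 4833 toward iWAT, and beyond a log2 of 1, 1577 to 1775 and 2474 to 2683. The difference in mitochondrially encoded share was 12.9 to 14.2 points and that of the top 10 genes 9.74 to 10.5 points. The latter became -0.8937 points without mitochondrially encoded genes (exact permutation p = 0.0952). Of 202 named genes, 174 kept their call throughout, and their direction where they were called. Signs of genes called in neither fit were not compared. Among these named genes signs turned for Lpl (-0.49 with either FPKM offset), Pdgfrb (-0.18 and -0.19) and Cox6a2 (-1.03 with the muscle covariate). Over all genes, 784 were called with opposite signs in the main fit and on log2 of FPKM plus 1, and 6743 with the same sign. With 0.1 added these were 776 and 6781, and with the muscle covariate 5 and 6775. The cause was not tested. Libraries of equal replicate number were not the most alike (same-number correlations -0.696 to 0.220, and no iWAT library correlated best with its own number). Whether equal numbers mark 1 mouse cannot be read from these correlations, since muscle mRNA also differed among the libraries. With a replicate block, 9114 genes of 13434 were called, and 9218 without it in the same 10 libraries. Genes under about 1 CPM rest on few counts per library.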
